A study of Mus musculus with 6 samples.

Results

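A set of 10 genes of IL-6 family and IL-1 signalling was followed in 3T3 cells after GapmeR Ntep and after GapmeR control. They were the ligands Il6, Lif, Il11 and Clcf1, the receptors Il6st and Osmr, the feedback inhibitor Socs3, the IL-1 family receptors Il1rl1 and Il1r1, and the enzyme gene Ptgs2. All non-control probes bearing one of these gene names were taken, so the set holds 10 of the 35527 gene names on the array and 10 of the 22034 genes that were bright enough to test. Il1rl1 had 3 probes and each of the other genes had 1.

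3T3 cells are an established line of mouse embryonic fibroblasts, and all groups were of this line. GapmeRs are chimeric antisense oligonucleotides through which RNase H cuts a matching RNA, here the lncRNA Ntep, and the GapmeR control has no intended target. In each of 3 independent experiments, 1 culture received GapmeR Ntep and 1 received GapmeR control, at 50 nM for 48 h per the labels, and total RNA was hybridised to Agilent arrays in 1 colour. All 6 arrays lay on 1 slide, and with 1 GapmeR against Ntep and 1 control GapmeR, an effect of the target cannot be told apart from an effect of the oligonucleotide.

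IL-6 family cytokines share the signalling receptor gp130, encoded by Il6st, which pairs with a receptor for the single ligand (such as OSMR for oncostatin M) and activates JAK kinases and STAT3. STAT3 induces Socs3, which in turn shuts off gp130. The IL-1 family receptors encoded by Il1r1 and Il1rl1 signal together with the co-receptor encoded by Il1rap through MyD88 and NF-κB. In fibroblasts this route is known to induce Il6, Lif, Il11 and Ptgs2, the gene of the prostaglandin-forming enzyme COX-2.

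Ntep itself, named A630089N07Rik in the files, was read by 1 probe and gave signals of 271, 272 and 361 on the control arrays of experiments 1, 2 and 3. On the arrays labelled GapmeR Ntep it gave 472, 91.5 and 226. The log2 difference within experiments was 0.80, -1.57 and -0.68, so experiment 1 went against its label, and the difference over all arrays was -0.48 (SE 0.58, limma adjusted p = 0.632). The arrays are therefore called by their labels throughout, and directions follow the labels. Signals are background-subtracted intensities after quantile normalisation, with values under 20 set to 20, and differences are log2 of GapmeR Ntep minus GapmeR control. Between 43.7% and 53.3% of the probes on an array were well above background. The brightest probe of each of the 10 genes was well above background on all 6 arrays, and none was saturated.

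No gene of the 10 differed between the labels after adjustment in the unpaired comparison. On the log2 scale, Il11, Il1rl1 and Ptgs2 averaged more than 2-fold higher on the arrays labelled GapmeR Ntep and Osmr more than 2-fold lower, but the spread between experiments was large beside these differences. Within experiments, Lif, Il11, Clcf1, Il1rl1 and Ptgs2 were higher on the GapmeR Ntep array of each experiment and Il6st, Osmr and Il1r1 lower. Of all genes tested, 32.5% were higher and 27.0% lower in 3 of 3 experiments. When each experiment was compared within itself, Il11 rose and Osmr fell past the adjusted threshold (6.51% and 7.42% of all genes). Both calls were lost when any single experiment was left out, and after adjustment those fits also called 0 of the further pathway genes described below.

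The counts behind these statements are as follows. By limma without pairing, 0 of the 10 genes passed an adjusted p under 0.05, where 1.98% of all tested genes were called higher and 3.18% lower. At a fold change of 2 with an unadjusted p under 0.01, 0 of 10 passed, against 2.89% of all genes higher and 5.0% lower. At an unadjusted p under 0.05 the count was also 0, against 25.0% of all genes. The methods' t-test also called 0 by the fold change with its p and 0 after adjustment. The signals of the labels overlapped for every one of the 10, where 17.1% of all genes lay wholly higher and 15.5% wholly lower under GapmeR Ntep. Higher in 3 of 3 experiments were 5 of the 10 (32.5% of all genes), and lower in 3 of 3 were 3 (27.0%), and a difference from those shares was not tested. The median log2 difference was 0.15 over the 10 genes and 0.06 over all genes tested. With experiments as blocks, 1 gene was called higher and 1 lower at an adjusted p under 0.05, where 6.51% and 7.42% of all genes were. In that fit 4 of the 10 passed the fold change of 2 with p under 0.01, namely Il11, Il1rl1 and Ptgs2 higher (4.37% of all genes) and Osmr lower (6.75%).

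**Figure D1:**
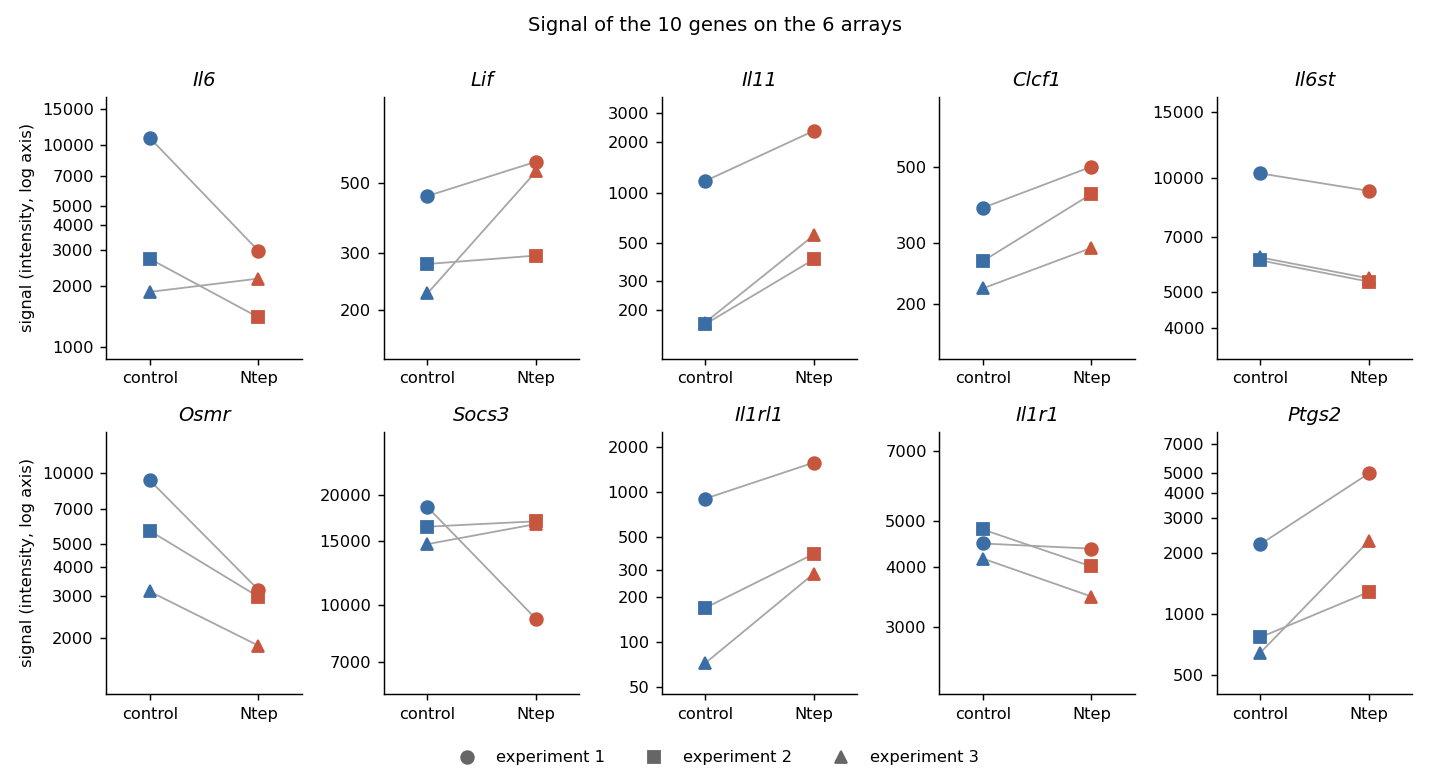
Signal (quantile-normalised intensity, log axis with its own range in each panel) of the brightest probe of each gene on the control (blue) and GapmeR Ntep (red) arrays, with lines joining the arrays of one experiment. The lines rise in all 3 experiments for Lif, Il11, Clcf1, Il1rl1 and Ptgs2 and fall in all 3 for Il6st, Osmr and Il1r1, while the experiments start from different levels.

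Among the ligands, Il11 differed most. IL-11 is a gp130 cytokine that fibroblasts release and respond to. Its probe (chr7:4724847-4724906, mm9, minus strand) gave 1174, 165 and 169 on the control arrays of experiments 1 to 3 and 2336, 401 and 557 on the arrays labelled GapmeR Ntep. The control array of experiment 1 was brighter than the GapmeR Ntep arrays of experiments 2 and 3, so the labels overlapped although the GapmeR Ntep array was the brighter one in every pair. The labels averaged 502 ± 581 and 1098 ± 1075 (SD, n = 3 each), and the log2 difference was 1.33 (SE 1.00, limma adjusted p = 0.452). Within experiments it was 0.99, 1.28 and 1.72. With the replicate block the estimate was the same, its SE fell to 0.20 and the limma adjusted p to 0.0363. This call was lost when any one experiment was left out, with estimates of 1.14 to 1.54 and adjusted p of 0.0999 to 0.162. Leaving out 1 array moved the unpaired difference to 2.26 (without control replicate 1) or to 0.58 (without GapmeR Ntep replicate 1).

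Il6, the founding member of the family, went the other way in most experiments. Its probe (chr5:30346367-30346426, mm9, plus strand) was printed in 2 spots and gave 10816, 2722 and 1867 on the control arrays, against 2985, 1398 and 2174 on those labelled GapmeR Ntep. The single high value was the control array of experiment 1, at 3.97 times the next control array, and experiments 2 and 3 differed in direction. The log2 differences were -1.86, -0.96 and 0.22 by experiment and -0.87 in all (SE 0.69, limma adjusted p = 0.479, or 0.241 with experiments as blocks). Without control replicate 1 the difference was -0.11.

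Lif, whose product keeps embryonic stem cells undifferentiated and signals through LIFR and gp130, was dimmer. Its signals were 454, 278 and 225 on the control arrays and 582, 295 and 542 on the arrays labelled GapmeR Ntep (probe chr11:4172032-4172091, mm9, plus strand). Experiment 3 showed the widest gap, 1.27 on the log2 scale, against 0.36 and 0.09 in experiments 1 and 2. Over all arrays the difference was 0.57 (SE 0.38, limma adjusted p = 0.399), and with array weights it was 0.96 (limma adjusted p = 0.0334). Array weights also raised the count of further pathway genes called after adjustment from 7 to 32. The share of all genes called with them is not given here. Clcf1 encodes a ligand of the CNTF receptor complex. It gave 381, 266 and 222 on the control arrays and 502, 418 and 291 on the others (probe chr19:4222480-4222539, mm9, plus strand). Its 3 differences, 0.40, 0.65 and 0.39, were alike, and their mean of 0.48 had an SE of 0.30 unpaired and 0.14 with experiments as blocks (limma adjusted p = 0.372 and 0.0981).

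The promoters of Il6 and Il11 are shown because these ligands differed in opposite directions in experiments 1 and 2. The sequences are the 250 bases before the annotated start (RefSeq, GRCm38.p6), at chr5:30012864-30013113 on the plus strand for Il6 and chr7:4778142-4778391 on the minus strand for Il11, 5′ to 3′ along the gene. Il11 has a second annotated start, whose window held none of the motifs searched. Capitals mark matches to AP-1 (TGANTCA), the first part of a cyclic AMP response element (TGACGT), C/EBP (TTGCNNAA), STAT (TTCNNNGAA) or the NF-κB consensus, each searched on both strands.
Il6: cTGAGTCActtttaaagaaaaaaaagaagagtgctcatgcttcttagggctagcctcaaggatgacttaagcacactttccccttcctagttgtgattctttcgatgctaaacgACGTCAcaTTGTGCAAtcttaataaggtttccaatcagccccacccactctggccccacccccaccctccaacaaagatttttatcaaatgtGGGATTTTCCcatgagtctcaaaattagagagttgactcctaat
Il11: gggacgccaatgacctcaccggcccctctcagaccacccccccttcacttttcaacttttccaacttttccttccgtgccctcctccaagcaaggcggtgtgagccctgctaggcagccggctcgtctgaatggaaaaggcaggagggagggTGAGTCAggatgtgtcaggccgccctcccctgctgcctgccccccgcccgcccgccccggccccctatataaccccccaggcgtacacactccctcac
The Il6 window held an AP-1, a TGACGT, a C/EBP and an NF-κB match, and the first of them began 249 bases before the start. The TGACGT and C/EBP matches lay close together without sharing bases. The Il11 window held a single AP-1 match, 98 bases before the start. Among 32851 windows of this length, 6.75% held AP-1, 6.47% TGACGT, 9.56% C/EBP, 7.02% STAT and 3.9% NF-κB matches. Of the 10 genes, 9 had a window and together they had 12, and the Lif window held 1 AP-1 match. A match describes letters in a window and says nothing of a factor's presence.

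Of the family's receptors among the 10 genes, Osmr differed more than Il6st. Osmr encodes the gp130 partner for oncostatin M, the receptor through which fibroblasts respond to that cytokine. Its probe (chr15:6763686-6763745, mm9, minus strand) gave 9275, 5675 and 3143 on the control arrays of experiments 1 to 3 and 3196, 2985 and 1855 on the arrays labelled GapmeR Ntep. Overlap came from the control array of experiment 3, which was about as dim as the GapmeR Ntep arrays of experiments 1 and 2. The log2 difference of -1.07 was a 2.11-fold lower mean level (SE 0.44, limma adjusted p = 0.201), with a 95% confidence interval from -2.15 to just above 0. By experiment it was -1.54, -0.93 and -0.76. With the replicate block the SE was 0.21 and the limma adjusted p was 0.0490, just inside the threshold, and without any one experiment it was 0.111 to 0.167. The window before the Osmr start, shown because Osmr is the receptor of the 10 genes that passed with experiments as blocks, lies at chr15:6874314-6874563 (RefSeq, GRCm38.p6, minus strand) and held none of the 5 motifs, so no base is in capitals.
Osmr: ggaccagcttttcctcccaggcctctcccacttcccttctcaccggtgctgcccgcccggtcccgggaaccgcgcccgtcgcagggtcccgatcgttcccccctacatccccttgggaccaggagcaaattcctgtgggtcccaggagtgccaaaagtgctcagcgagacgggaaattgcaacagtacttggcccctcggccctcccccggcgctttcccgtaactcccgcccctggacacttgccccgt

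Il6st, the shared gp130 receptor, gave 10309, 6054 and 6166 on the control arrays and 9264, 5313 and 5423 on those labelled GapmeR Ntep (probe chr13:113296586-113296645, mm9, plus strand). Every pair was slightly lower, by -0.15, -0.19 and -0.19 on the log2 scale, and experiment 1 was brighter than the others under both labels. The difference of -0.18 had a 95% confidence interval of -0.98 to 0.63 unpaired and of -0.54 to 0.18 with experiments as blocks (limma adjusted p = 0.765 and 0.381). Socs3, the feedback inhibitor of gp130, gave 18525, 16378 and 14683 on the control arrays against 9189, 16942 and 16651. Only the GapmeR Ntep array of experiment 1 stood low, at 0.54 times the higher of the other arrays of its label. Its differences were -1.01, 0.05 and 0.18 by experiment and -0.26 in all (SE 0.29, limma adjusted p = 0.599, probe chr11:117827480-117827539, mm9, minus strand). Without GapmeR Ntep replicate 1 the difference was 0.03. The Socs3 window held 1 STAT match, 154 bases before the start, and the Il6st window held no match.

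**Figure D2:**
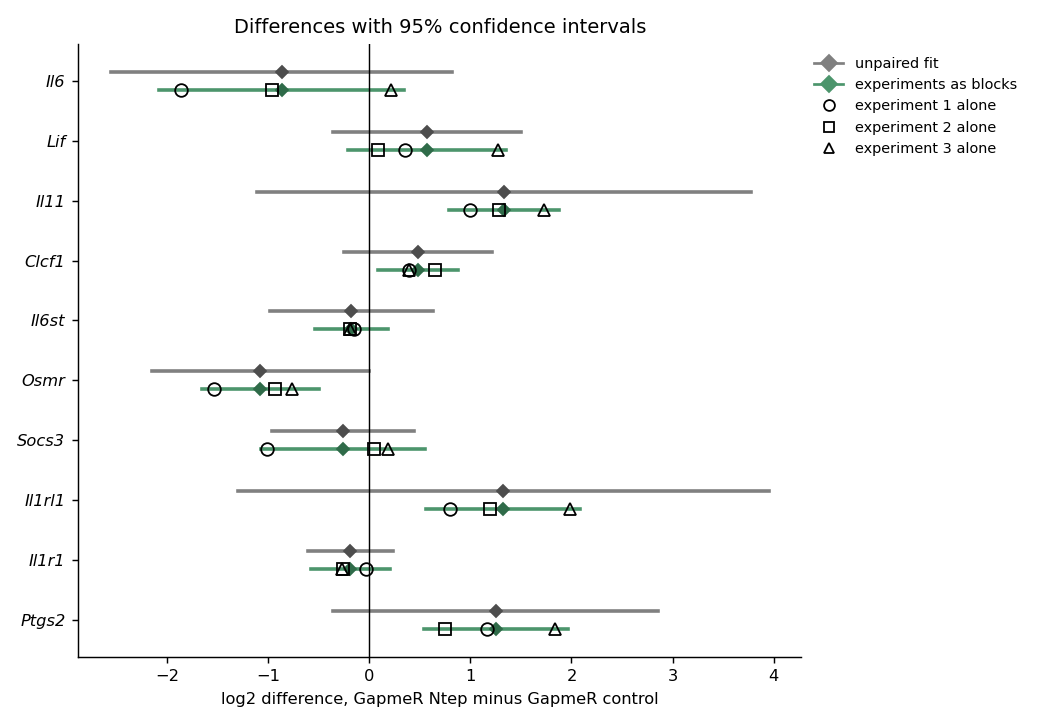
Log2 difference (GapmeR Ntep minus GapmeR control) of each gene, with 95% confidence intervals from the unpaired limma fit (grey) and the fit with experiments as blocks (green), and the difference of each experiment as open symbols. All unpaired intervals reach 0, and with experiments as blocks those of Il11, Clcf1, Il1rl1 and Ptgs2 lie above 0 and that of Osmr below it.

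Of the IL-1 family receptors, Il1rl1 varied most between experiments and its probes disagreed. Il1rl1 encodes ST2, the receptor for IL-33, in a membrane form and in a shorter soluble form that lacks the membrane part and captures the ligand. The brightest probe (chr1:40522187-40522246, mm9, plus strand), assigned in the files to the longer transcript, gave 898, 168 and 71.7 on the control arrays and 1563, 384 and 284 on the arrays labelled GapmeR Ntep. Control signals spanned 12.5-fold, the widest range of the 10 genes, and only the control array of experiment 1 overlapped with the other label. Differences were 0.80, 1.20 and 1.98 by experiment and 1.33 in all (SE 1.07, limma adjusted p = 0.484). With experiments as blocks the SE was 0.28 and the limma adjusted p was 0.0540. Leaving out 1 array gave unpaired differences from 0.51 (without control replicate 3) to 2.33 (without control replicate 1).

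The second probe of Il1rl1 (chr1:40504769-40504828, mm9, plus strand) is assigned to the shorter transcript. It gave 265, 60.3 and 20 on the control arrays and 137, 48.9 and 20 on those labelled GapmeR Ntep, where 20 is the floor. The probe was well above background on 1 of 3 control arrays and 2 of 3 GapmeR Ntep arrays, and its difference was -0.42 (SE 1.10, limma adjusted p = 0.838). Both probes were brightest in experiment 1 under either label, but the second was not higher on the GapmeR Ntep array of any experiment. The last probe (chr1:40520014-40520073, mm9, plus strand), assigned to the longer transcript, was at the floor of 20 on all arrays and was not tested. Il1rl1 has a window at each of 2 annotated starts (RefSeq, GRCm38.p6, plus strand), shown because its probes gave different readings, at chr1:40429320-40429569 (distal) and chr1:40439379-40439628 (proximal). Capitals mark the one match in each, C/EBP in the distal and TGACGT in the proximal window, both beginning 34 bases before the start.
Il1rl1 distal: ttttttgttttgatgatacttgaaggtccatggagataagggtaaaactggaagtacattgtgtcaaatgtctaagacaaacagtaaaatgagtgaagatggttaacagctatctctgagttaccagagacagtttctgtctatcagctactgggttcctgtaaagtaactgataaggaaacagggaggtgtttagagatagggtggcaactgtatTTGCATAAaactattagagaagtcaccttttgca
Il1rl1 proximal: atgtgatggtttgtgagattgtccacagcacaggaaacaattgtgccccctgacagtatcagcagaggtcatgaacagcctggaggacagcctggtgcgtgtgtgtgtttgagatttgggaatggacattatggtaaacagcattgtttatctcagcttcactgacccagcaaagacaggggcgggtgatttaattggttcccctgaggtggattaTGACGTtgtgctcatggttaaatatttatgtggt

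**Figure D3:**
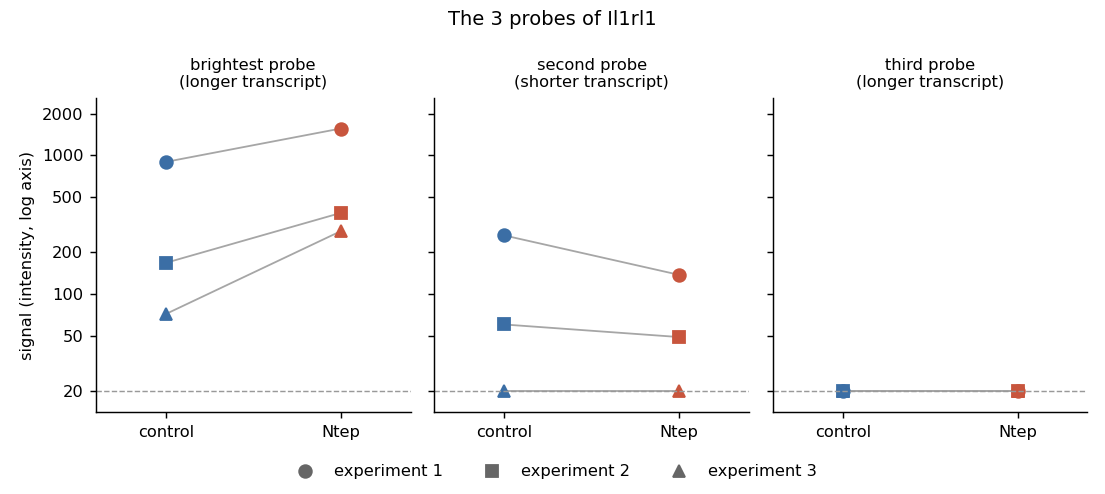
Signal (quantile-normalised intensity, log axis shared by the panels) of the 3 Il1rl1 probes on the control (blue) and GapmeR Ntep (red) arrays, with lines joining the arrays of one experiment and a dashed line at the floor of 20. The brightest probe is higher on the GapmeR Ntep array of every experiment, the second is not, and the remaining probe lies at the floor.

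Il1r1, the receptor that binds IL-1 itself, was steady. It gave 4491, 4806 and 4176 on the control arrays and 4380, 4020 and 3477 on the arrays labelled GapmeR Ntep (probe chr1:40372667-40372726, mm9, plus strand). The difference was -0.19 with a 95% confidence interval of -0.60 to 0.23 (limma adjusted p = 0.528), so that a change of 2-fold lay outside the interval. Its control arrays spanned 1.15-fold, the narrowest range of the 10 genes.

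Ptgs2, the target enzyme of the IL-1 route, was printed in 10 spots, which were averaged. Its signals were 2222, 770 and 646 on the control arrays and 4986, 1291 and 2311 on those labelled GapmeR Ntep (probe chr1:151954744-151954803, mm9, plus strand). As with Il11, the control array of experiment 1 reached into the range of the other label, here above the GapmeR Ntep array of experiment 2. The means were 1213 ± 876 and 2863 ± 1908 (SD, n = 3 each), a log2 difference of 1.25 (SE 0.66, limma adjusted p = 0.298). By experiment it was 1.17, 0.75 and 1.84. With experiments as blocks the limma adjusted p was 0.0532 and with array weights 0.0233, a fit for which the share of all genes called is not given. The Ptgs2 window is shown because this gene, like Il11, was higher in each experiment, and it lies at chr1:150099781-150100030 (RefSeq, GRCm38.p6, plus strand). Capitals mark a C/EBP match that begins 69 bases before the start, and the window held no AP-1 match.
Ptgs2: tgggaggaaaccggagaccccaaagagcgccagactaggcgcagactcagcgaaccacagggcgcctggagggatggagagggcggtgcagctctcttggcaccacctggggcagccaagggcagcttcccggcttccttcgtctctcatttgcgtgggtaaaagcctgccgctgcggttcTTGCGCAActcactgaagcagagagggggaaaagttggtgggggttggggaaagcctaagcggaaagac

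Experiment 1 stood apart for several of these genes under both labels. The control array of experiment 1 was at least 2-fold above both other control arrays for 4 of the 10, Il6 (3.97), Il11 (6.96), Il1rl1 (5.35) and Ptgs2 (2.89), where this held for 4.93% of all tested genes. On the GapmeR Ntep side the same held for Il11 (4.19), Il1rl1 (4.07) and Ptgs2 (2.16), and for 5.26% of all genes. The control array of experiment 1 was the brightest of its label for 9 of the 10 genes and for 10185 of 22034 genes. The GapmeR Ntep array of experiment 1 was likewise the brightest of its label for 9 of the 10 and for 8756 of 22034. Over the control arrays, the highest signal was 2.49 times the lowest in the median of the 10 genes and 1.42 times in that of all genes. Leaving out experiment 1, which was done after the values had been seen, left 6 genes with both GapmeR Ntep arrays above both control arrays (Lif, Il11, Clcf1, Socs3, Il1rl1 and Ptgs2; 35.0% of all genes) and 3 with both below (Il6st, Osmr and Il1r1; 28.7%). On these 4 arrays, limma with experiments as blocks called 0 of the 10 genes after adjustment and 1, Il11, by the fold change of 2 with p under 0.01. After adjustment that fit also called 0 of the further pathway genes described below. The share of all genes it called is not given here.

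**Figure D4:**
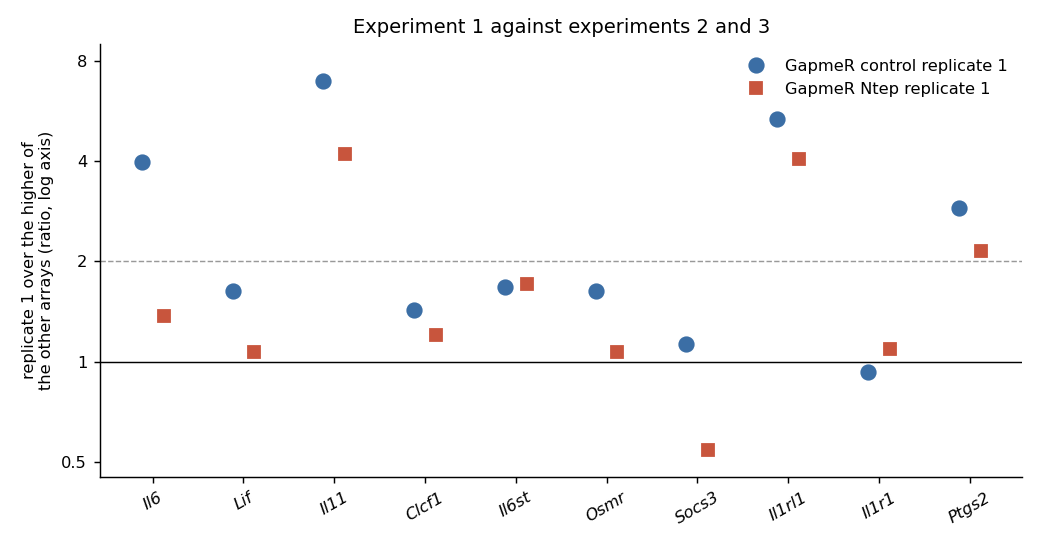
Signal on replicate 1 divided by the higher signal of the other arrays of its label (ratio, log axis), for GapmeR control (blue circles) and GapmeR Ntep (red squares), with a solid line at 1 and a dashed line at 2. Il11, Il1rl1 and Ptgs2 lie above 2 for both labels, and Il6 for the control only.

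Of 94 further genes listed for these pathways, 74 were tested, and at an adjusted p under 0.05 GapmeR Ntep arrays were higher for 2 and lower for 5 of them. Over all genes tested the same calls made up 1.98% and 3.18%. The median difference of the 74 was 0.03. With experiments as blocks 5 were higher and 13 lower, where 6.51% and 7.42% of all genes were. None of the 7 kept an adjusted p under 0.05 without any one of control replicates 1, 2 or 3 or GapmeR Ntep replicate 3, while 2, Cntf among them, passed without GapmeR Ntep replicate 1. List medians ran from -1.68 (IL-1 family ligands and antagonists) to 0.41 (IL-6 family ligands).

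Cntf was the ligand gene that passed. It encodes a neural cytokine that signals through gp130 and LIFR. Its brightest probe gave 3065, 2756 and 2472 on the control arrays and 10873, 11831 and 16586 on the arrays labelled GapmeR Ntep, with no overlap (log2 difference 2.22, SE 0.22, limma adjusted p = 0.0187). A dimmer probe differed by 0.86 (limma adjusted p = 0.0580). In the files the brightest probe is also assigned to a read-through transcript of Zfp91 and Cntf, so the signal is uncertain as one of Cntf alone. Oncostatin M (Osm), a ligand of the receptor encoded by Osmr, was at the floor of 20 on all arrays.

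All 6 tested genes of the gp130 receptor list, Il6st and Osmr among them, were lower in 3 of 3 experiments (27.0% of all genes), with a median of -0.62, and 0 of the 6 passed the adjusted threshold in the unpaired limma fit. With experiments as blocks, Osmr and Lifr passed. Lifr, the receptor for LIF, was past the fold change of 2 with p under 0.01, at 2940, 2429 and 1555 on the control arrays against 994, 1144 and 864 (log2 difference -1.17, limma adjusted p = 0.0685, or 0.0413 with experiments as blocks). A second Lifr probe, assigned to another transcript, differed by 0.65 in the opposite direction (limma adjusted p = 0.244). The remaining Lifr probe, dimmer and assigned to the same transcript as the brightest, differed by -0.15 (limma adjusted p = 0.813). By experiment it differed by -0.94, 0.19 and 0.31, so the lower level of Lifr rests on its brightest probe. Among the 14 genes of JAK-STAT3 signalling and feedback, Socs1, an inhibitor of JAK kinases, was lower at 9718 ± 862 against 17954 ± 2189 (SD, n = 3 each, log2 difference -0.88, limma adjusted p = 0.0481). Of 15 STAT3 target genes, 0 were called by limma after adjustment. Saa3, an acute phase protein gene, had a dim probe at 94.3 ± 5.74 against 192 ± 41.7 and came nearest (SD, n = 3 each, log2 difference 1.01, limma adjusted p = 0.0501, or 0.0477 with experiments as blocks).

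The ligand genes Il1a and Il1b and the antagonist gene Il1rn were not well above background on any array, whereas Il18 and Il33 were measured. Il18bp, whose product binds and blocks IL-18, was the one gene called of 3 tested on its list, with 1707, 2711 and 2030 on the control arrays and 596, 603 and 795 on the others (log2 difference -1.68, limma adjusted p = 0.0287). Il18 and Il33, named after their values were seen, passed with experiments as blocks but not without. Il18 gave 977, 4691 and 3307 on the control arrays against 237, 1118 and 657 (log2 difference -2.15, limma adjusted p = 0.161 unpaired and 0.0310 with blocks). Il33, whose product is the ligand of ST2, gave 118, 435 and 425 against 43.1, 180 and 216, well above background on 2 of these 3 arrays (log2 difference -1.23, limma adjusted p = 0.385 unpaired and 0.0337 with blocks). Il1rap, the co-receptor that both Il1r1 and Il1rl1 need to signal, was lower by 2 probes assigned to different transcripts. The brighter one gave 1600, 1372 and 1221 on the control arrays and 482, 595 and 697 on those labelled GapmeR Ntep (log2 difference -1.25, limma adjusted p = 0.0356). The dimmer one differed by -1.47 (limma adjusted p = 0.0287). Which of the 2 transcripts encodes the form that signals was not examined. Downstream, Tab3, an adaptor of the kinase TAK1, was lower (log2 difference -1.42, limma adjusted p = 0.0288) and Tollip, a negative regulator of IL-1 receptor signalling, was higher at 18151 ± 3250 against 7288 ± 269 (SD, n = 3 each, log2 difference 1.30, limma adjusted p = 0.0294). All 3 other Tollip and Il1rap probes that were tested pointed the same way as the brightest.

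In prostaglandin synthesis, 0 of 11 tested genes, Ptgs2 included, passed the adjusted threshold in limma. Ptgis, prostacyclin synthase, which acts on the product of COX-2, passed the fold change of 2 with p under 0.01. It gave 25219, 28027 and 29955 on the control arrays and 11824, 15551 and 7975 on the arrays labelled GapmeR Ntep (log2 difference -1.28, limma adjusted p = 0.0541). Of 8 genes for proteins that set the stability of cytokine mRNAs, 0 were called by limma. The widest differences there were those of Arid5a and Zc3h12a. Arid5a, which protects Il6 mRNA, differed by 0.87 (limma adjusted p = 0.118). Zc3h12a, the RNase that degrades that mRNA, differed by -0.80 (limma adjusted p = 0.128). The Zc3h12a probe was dim, at a mean of 109 on the control arrays against 61.4, and well above background on 2 of 3 GapmeR Ntep arrays. Its difference ranged from -0.96 to -0.28 under the alternatives listed below.

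**Figure D5:**
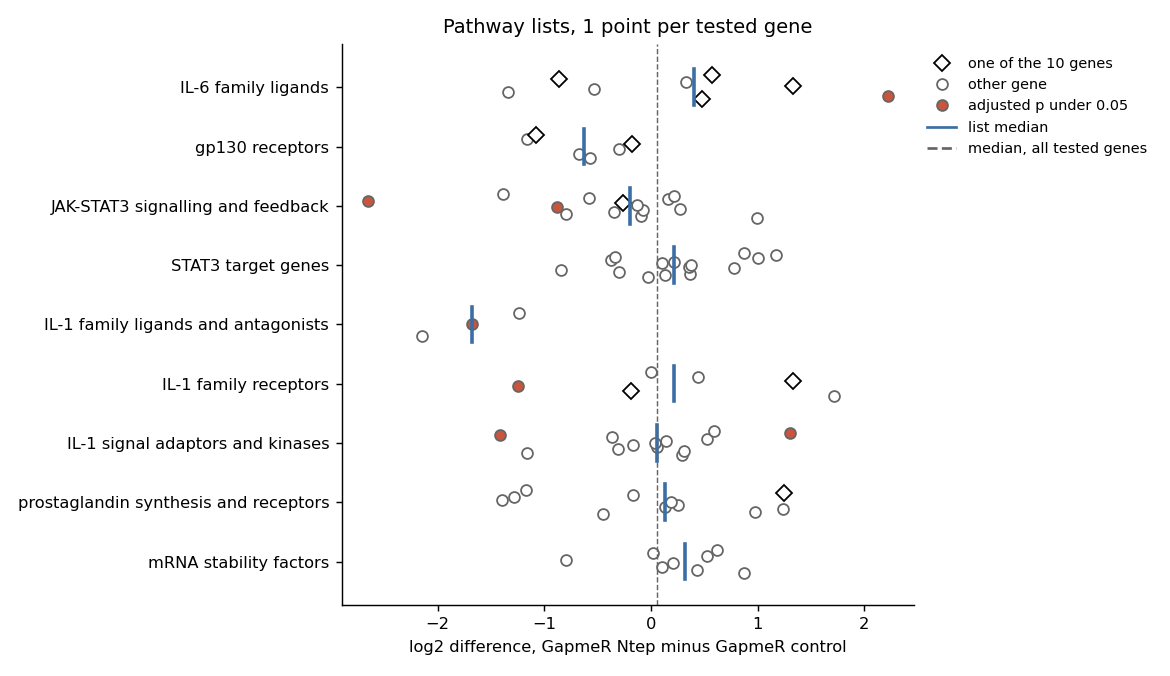
Log2 difference (GapmeR Ntep minus GapmeR control) of each tested gene of 9 pathway lists, with diamonds for the 10 genes, circles for other genes, red filling for an adjusted p under 0.05, a blue line at each list's median and a dashed line at the median of all tested genes (0.06). The 6 tested gp130 receptors all lie below 0, and none of the diamonds is filled.

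Of 14 fibroblast markers 13 were tested. Under GapmeR Ntep 12 had lower and 1 a higher mean log2 level, with a median difference of -0.71, but Fbn1 alone passed an adjusted p of 0.05 (log2 difference -0.88, limma adjusted p = 0.0439). Their summed signal was 849206 to 925775 on the control arrays and 574664 to 738449 on the others, and Fap was at the floor on all 6. Of 12 macrophage markers, 6 were tested, and their summed signal was 21165 to 27815 against 43072 to 75491. In the unpaired limma fit 1 of the 6 was called higher after adjustment (1.98% of all genes) and 0 lower (3.18%). With experiments as blocks 4 were called higher (6.51%) and 1 lower (7.42%). Cd68, Itgam and Cd14 were higher on every array labelled GapmeR Ntep, where 17.1% of all genes lay wholly higher. Ptprc, Adgre1, Tyrobp, Mrc1, Cd163 and Fcgr1 were not well above background on any array. Csf1r gave 1403, 142 and 86.7 on the control arrays and 4901, 2227 and 1196 on the others, so that it too was high in experiment 1. Aif1 was lower in each experiment (log2 difference -1.28) and Lyz2 overlapped between the labels. Of the markers of T and B cells 3 of 7 were tested (summed signal 655 to 815 on the control arrays against 780 to 1002), of mast cells 3 of 6 (1499 to 2005 against 2469 to 3609), of epithelium 6 of 6 (3071 to 4183 against 3398 to 7771) and of endothelium 3 of 6 (793 to 1014 against 837 to 992). The part of these markers in the results above was not tested. In whole cultures, fewer cells of a kind and less RNA per cell cannot be told apart.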

How the data were processed

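Intensities were extracted from the scans by the authors with Feature Extraction 10.7.3.1 and deposited per array as background-subtracted intensity on a linear scale, with a flag for spots well above background. The authors also deposited a table of intensity values after quantile normalisation, with values under 20 set to 20, which served as an alternative here.

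Spots of a probe were averaged, arrays were quantile normalised, a floor of 20 was set, and the 6 arrays entered an unpaired limma fit on log2 intensity (limma 3.58.1, R 4.3.3). Testing was limited to the 30990 probes (22034 gene names) whose mean reached 50 under either label, p-values are two-sided, and adjustment (Benjamini-Hochberg) ran over all of them. The brightest probe stood for a gene. An exact permutation test of 3 against 3 arrays cannot go below 0.1. Replicate numbers follow the study's sample sheet, which pairs arrays by culture day. Residuals of arrays with the same number correlated at 0.462, 0.290 and 0.252 and others at -0.319 to 0.128, so a fit with experiments as replicate blocks was run beside the unpaired one. The 10 genes, the pathway lists and the marker lists were chosen with earlier results of these data known.

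Beyond the 10 genes, those named are the genes of each pathway list past an adjusted p of 0.05 or a fold change of 2 with p under 0.01, at most 5 a list, the 2 largest differences where none passed, and Ntep. A result that this rule covers is not reported here. Alternatives were 75th percentile scaling, normexp with an offset of 50, other floors and filters, the deposited table, removal of outlier spots, an intensity trend, array weights, the methods' t-test, any probe in place of the brightest, and omission of each array. Omission of each experiment under the replicate block was added after seeing the data. On simulated data with 200 of 30990 probes changed 4-fold, 47.5% were called after adjustment, 100% had the right sign and 10 others were called. Promoter windows are RefSeq's (GRCm38.p6), and probe positions are those of mm9 in the files. Exons and UTRs were not annotated here. Array number and the spread between cultures, not read depth, limit the precision.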

Additional observations from a re-analysis of the deposited data

How the results depend on the processing

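Under all alternatives run, Il6, Lif, Il11, Clcf1, Osmr, Il1rl1 (brightest probe), Il1r1 and Ptgs2 kept their direction. The count of the 10 genes past the fold change of 2 with p under 0.01, 0 as reported, was 4 with the replicate block and 1 with array weights, and 0 to 1 when 1 array, or 1 experiment under the block, was left out. The count past an adjusted p of 0.05, also 0, was 2 with the replicate block (Il11 and Osmr) and 2 with array weights (Lif and Ptgs2), and was 0 with each array or experiment left out. Array weights also raised the count of pathway genes past that threshold from 7 to 32. The share of all genes passing with array weights is not given here. At that threshold the block changed no other call of the 10 genes or of the genes named from the pathway lists, except that it added Lifr, Saa3, Il18 and Il33. The count of genes whose labels did not overlap, 0, was 1 with normexp, 0 to 5 without 1 array and 2 to 9 without 1 experiment, in part because fewer arrays were compared. The 7 pathway genes past an adjusted p of 0.05 became 2 without a filter on dim probes, 11 among probes well above background, 18 with the replicate block, 32 with array weights and 2 by the methods' t-test, and 0 to 5 with 1 array or experiment left out. Direction reversed for Il6st without control replicate 1 (range without 1 array -0.44 to 0.0772), for Socs3 with array weights (0.0305), without GapmeR Ntep replicate 1 (range -0.41 to 0.0305) and, under the block, without experiment 1 (0.11), for the second Il1rl1 probe without control replicate 1 or GapmeR Ntep replicate 3 (0.56 and 0.28, range from -1.30), and for A630089N07Rik without replicate 2 of GapmeR Ntep (range -1.09 to 0.13) or, under the block, experiment 2 (0.0639). The causes were not tested. With scaling to the 75th percentile, the all-gene median went from 0.06 to 0.20 on the log2 scale, a shift of 0.15, and changed no direction among the 10 genes.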
